A study of Homo sapiens with 2 samples.

Results

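The peaks described here are the NUDT21 eCLIP-seq peaks in 10 genes for HSP90, HSP70 and endoplasmic reticulum (ER) chaperones: HSP90B1, HSP90AA1, HSP90AB1, HSPA5, HSPA8, CANX, CALR, PDIA3, PDIA4 and PDIA6. A peak was a member when its midpoint lay in the body of one of these genes in GENCODE 44, and 48 of the 20499 deposited peaks were members. Counting any overlap with a gene body gave the same 48. The members were chosen by the peak calls themselves, which rest on Score, fold enrichment and p-value, so these values are given as a description.

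Both samples came from 1 cell line, J-Gamma1, a derivative of the Jurkat line of T-cell acute lymphoblastic leukemia. The cells were crosslinked with UV-C at 254 nm, each exposure giving 400 mJ, and the lysate was cut with 40 U of RNase I for 5 min at 37 °C. No treatment or genotype differed between them: 1 library was made with a NUDT21 antibody and 1 was the input. In eCLIP-seq, RNA crosslinked to a protein is pulled down with an antibody and sequenced. The peaks come from the antibody library, and the input was not analysed here. Without a replicate no test between samples was made, and every interval below is a 95% interval that covers counting error only. The list gives no read totals, so the depth is unknown. Of 15 T-cell marker genes, 6 held a peak (CD3E, CD247, ZAP70, PTPRC, BCL11B and GATA3), and of 16 markers of other cell types 1 did (CD79B), beside 33.4% of all protein-coding genes. The peaks of ZAP70 and CD79B were of 1 Score step each, while the highest of the other 5 T-cell markers had 6 to 19.

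HSP90 and HSP70 proteins bind partly folded proteins in cycles driven by ATP. HSP90AA1 and HSP90AB1 work in the cytosol with HSPA8, while HSP90B1 and HSPA5 are their ER relatives. Calnexin (CANX) and calreticulin (CALR) hold glycoproteins through their sugars, and PDIA3, PDIA4 and PDIA6 form and exchange disulfide bonds. NUDT21 is the subunit of cleavage factor I that binds UGUA in RNA ahead of polyadenylation sites. Its best known place on an mRNA is therefore the 3'UTR.

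The stretches of RNA that carry the pattern of these peaks are printed here, from the hg38 reference on the strand of the gene. The first set shows coding windows of 30 bases from HSP90B1 peaks, with GAA in capitals: the window with most GAA in the peak of highest fold, and those of exons 7, 13 and 17.

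HSP90B1 exon 2, chr12:103931538-103931567, plus strand: gatGAAgttgatgtggatggtacagtaGAA
HSP90B1 exon 7, chr12:103938367-103938396, plus strand: GAAGAAGAAgcagccaaaGAAgaGAAaGAA
HSP90B1 exon 13, chr12:103943208-103943237, plus strand: gGAAggagtGAAgttcgatGAAagtgaGAA
HSP90B1 exon 17, chr12:103947325-103947354, plus strand: cGAAGAAGAAcctGAAgagacagcaGAAga

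The second set shows windows of 10 aligned codons where a peak in HSP90AA1 and a peak in HSP90AB1 cover the same residues, again with GAA in capitals. In the order printed, the pairs matched at 22, 26, 26 and 23 of 30 bases.

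HSP90AA1 residues 273 to 282, chr14:102084816-102084845, minus strand: gacaaGAAGAAGAAGAAGAAgattaagGAA
HSP90AB1 residues 265 to 274, chr6:44250435-44250464, plus strand: aaGAAGAAGAAaactaaGAAgatcaaagag
HSP90AA1 residues 354 to 363, chr14:102084457-102084486, minus strand: aacaGAAaGAAaaaGAAcaacatcaaattg
HSP90AB1 residues 346 to 355, chr6:44251126-44251155, plus strand: aacaaGAAGAAaaaGAAcaacatcaaactc
HSP90AA1 residues 521 to 530, chr14:102083199-102083228, minus strand: atgattgagcccattgatgagtactgtgtc
HSP90AB1 residues 513 to 522, chr6:44252073-44252102, plus strand: atgaccgagcccattgacgagtactgtgtg
HSP90AA1 residues 555 to 564, chr14:102083097-102083126, minus strand: GAAGAAgaGAAaaaGAAgcagGAAgaGAAa
HSP90AB1 residues 547 to 556, chr6:44252175-44252204, plus strand: gaggaggaGAAGAAGAAgatgGAAgagagc

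The third set shows where coding peaks ran over the 3' edge of their exon: 15 exon bases in capitals, then 15 intron bases. Each intron begins with GT, the start of a 5' splice site.

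HSP90B1 exon 2, chr12:103931609-103931638, plus strand: TGAAGTAGTACAGAGgtttgtgttcatttg
HSP90B1 exon 3, chr12:103932404-103932433, plus strand: TATAAAAATAAAGAGgtaagcaacatgtgg
HSP90AA1 exon 9, chr14:102083019-102083048, minus strand: AAAAAAGTTGAAAAGgtatgtgaatacagc
HSP90AB1 exon 7, chr6:44251199-44251228, plus strand: TACCAGAGTATCTCAgtgagtatctccttg
PDIA3 exon 10, chr15:43769632-43769661, plus strand: GAACTTGGCGAGAAGgtaagtgtgaaccct
PDIA4 exon 4, chr7:149014889-149014918, minus strand: GTTTTATGCCCCATGgtaaggtggtgtcag

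The last set shows windows of 3'UTR peaks, with UGUA (written TGTA) in capitals, or AATAAA, the polyadenylation signal, in the case of PDIA4. The first HSP90B1 window crosses the stop codon, and its UGUA is made by the last codon and the stop.

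HSP90B1 stop, chr12:103947645-103947674, plus strand: gaaaaagatgaatTGTAaattatactctca
HSP90B1 3'UTR, chr12:103947835-103947864, plus strand: cattcctcatgaaTGTAaattTGTActatt
HSP90B1 3'UTR end, chr12:103947877-103947906, plus strand: cttgaTGTAaaatcttgtcatgTGTAtaaa
HSP90AB1 3'UTR, chr6:44253619-44253648, plus strand: aaacttgtgccctTGTAtagtgtccccatg
CALR 3'UTR, chr19:12944430-12944459, plus strand: ctcacactgagaaTGTAagaactacaaaca
PDIA3 3'UTR, chr15:43771227-43771256, plus strand: ccaaacaccacttTGTAaaaggactcttcc
PDIA6 3'UTR, chr2:10784041-10784070, minus strand: ttctatgaattgtTGTAgccggtgaattga
PDIA4 3'UTR end, chr7:149003079-149003108, minus strand: gtagagtaggctgtggcaatggAATAAAac

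Each peak has 3 values. The Score is the authors' pileup of antibody reads at the peak, and its values are whole multiples of 0.228, called steps here. Per the study's methods, the peak call kept 1 read of those at the same position. Whether the highest pileups, up to 45 steps in the list, stand near a limit set by this was not tested. The fold enrichment is the authors' ratio of pileup to local background, and it equals Score plus 1 over background plus 1, so the background behind each peak was solved from it and is called the implied background, in Score units. The FDR is given as deposited, and how it relates to the q-value limit stated for the peak call is unknown.

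Peaks were found in 9 of the 10 genes, mostly at high pileup and on a high local background. Their midpoints lay in coding sequence of some transcript for 36 of 48, but 27 counted as 3'UTR when 3'UTRs were ranked first. Of the 48 chaperone peaks, 44 (91.7%, 80.0 to 97.7%) reached 5 steps, where 42.3% of all peaks did, and 39 (81.2%, 67.4 to 91.1%) reached 10 steps, where 11.8% of all peaks did. The implied background was 1 or more for 31 of 48 (64.6%, 49.5 to 77.8%), beside 1.71% of all peaks. The median fold enrichment of the chaperone peaks was 2.56 (2.28 to 2.93), beside 1.61 for all peaks, and the median pileup was 22.5 steps (16 to 28), beside 3. An FDR under 0.05 was reached by 1 chaperone peak, in HSP90B1, where 0.0927% of all peaks, or 19, reached it.

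The share of chaperone peaks grew with the pileup asked for. They made up 0.507% of the 8677 peaks of 5 or more steps, 16.0% of the 181 peaks of 20 or more, 26.2% of the 61 peaks of 30 or more and 3 of the 9 peaks of 40 or more. The highest pileup of the list was 45 steps, outside these genes. A high pileup did not always come with a high fold enrichment. The HSP90AA1 peak of 42 steps ranked 3 by pileup in the list. With its implied background of 5.0, its fold was 1.76, which ranked 9254.

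**Figure D1:**
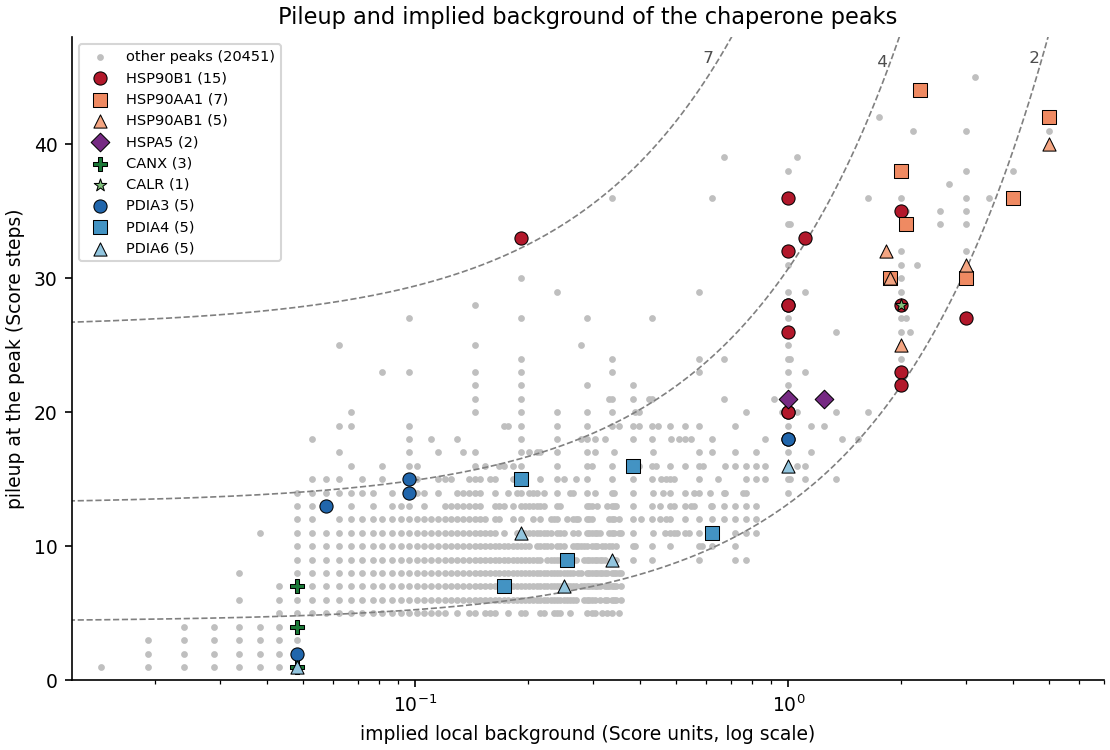
Pileup in Score steps (vertical axis) against implied local background in Score units (horizontal axis, log scale) for the 48 chaperone peaks, by gene, and for the 20451 other peaks (grey; peaks of equal values share a point). Dashed lines join equal fold enrichments of 2, 4 and 7; the HSP90 peaks stand at 18 to 44 steps with backgrounds of 1 to 5, except the HSP90B1 peak at 33 steps and 0.192, and the PDIA and CANX peaks stand at 1 to 18 steps with backgrounds of 0.048 to 1.

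HSP90B1, the ER member of the HSP90 family (chr12:103930107-103953931, plus strand), held 15 peaks, the most of the 10 genes. In all, 117 of 19396 protein-coding genes held at least as many. The peaks fell on 14 of its 18 canonical exons, with codons of 499 of 803 residues (62.1%) under a peak. Pileup ranged from 18 to 36 steps, with a median of 28, and fold from 1.79 to 7.14.

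The HSP90B1 peak with the highest fold of the whole list lay over exon 2 at chr12:103931534-103931662, with 33 steps, an implied background of 0.192, a fold of 7.14 and an FDR of 0.0017. It covered codons of residues 21 to 51, next to the start of the mature protein, and counts as 5'UTR where an alternative transcript takes precedence. By pileup it ranked 39. The next exon downstream carried 32 steps at chr12:103932307-103932458, but on a background of 1.0, for a fold of 4.14. With its own background set to 1, the exon 2 peak would have a fold of 4.26, so the step between these neighbouring peaks was in the background and not in the pileup.

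The other HSP90B1 peaks followed exon after exon. Exon 1, at chr12:103930438-103930595, had 20 steps and a fold of 2.78, and it also lay over the microRNA gene MIR3652, on the same strand. Exon 4, at chr12:103932832-103932980, had 23 steps and a fold of 2.08, and exon 5, at chr12:103934000-103934311, had 28 steps and 3.69. Exon 7, at chr12:103938350-103938498, also had 28 steps and 3.69. The residues encoded under its peak had the highest charged share of the gene's peaks: 72.2% of 36 were glutamate, aspartate or lysine. This exon encodes part of the charged linker that joins the N-terminal and middle domains of HSP90 proteins.

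Further along HSP90B1, the peaks at chr12:103941649-103941739 (exon 10) and chr12:103941878-103941925 had 20 and 28 steps and folds of 2.78 and 2.46. The second of these was in an intron of the canonical transcript at its midpoint and in coding sequence of another. Exon 12, at chr12:103942572-103942779, had 33 steps and a fold of 4.05, and exon 13, at chr12:103943166-103943347, had 35 steps on a background of 2.0 and a fold of 2.99. The lowest fold of the gene, 1.79, was that of exon 14 at chr12:103943808-103943901, where 27 steps stood on a background of 3.0.

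In the 3' part of HSP90B1, each of exons 15 to 18 held a peak. Exon 15, at chr12:103946640-103946731, had 22 steps and a fold of 2.0, and exon 16, at chr12:103946873-103946974, had 26 steps and 3.46. Exon 17, at chr12:103947325-103947471, had the most steps of the gene, 36, with a fold of 4.60 and an FDR of 0.396. It encodes an acidic stretch near the C-terminus, where 62.9% of 35 residues were glutamate, aspartate or lysine. The last peak, chr12:103947642-103947906, covered the codons of the last 4 residues, which form the ER retention signal, and 92.4% of the 264 nt of 3'UTR, and it had the lowest pileup of the gene at 18 steps with a fold of 2.55. It held 6 UGUA, more than any other chaperone peak.

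The gene UQCC6 runs over the 3' part of HSP90B1 on the other strand. Of the HSP90B1 peaks, 9 lay within its body and 2 within its exons, and without strand in the list these reads cannot be assigned to either gene.

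HSP90AA1, the inducible cytosolic HSP90 (chr14:102080742-102139699, minus strand), held 7 peaks of 30 to 44 steps, all in coding sequence of exons 5 to 10 and none in its 970 nt of 3'UTR, which holds 11 UGUA. The peak over exon 5, at chr14:102084756-102084958, ranked 2 by pileup in the whole list, with 44 steps, a background of 2.26 and a fold of 3.38, the highest of the gene. It covered residues 235 to 302, the charged linker, with 24 GAA in 203 nt. Exon 6, at chr14:102084374-102084488, had 42 steps on the background of 5.0 given above.

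The remaining HSP90AA1 peaks had folds between 1.84 and 3.22. The peak of exon 7, chr14:102083772-102083840, had 36 steps on a background of 4.0 and a fold of 1.84, and that of exon 8, chr14:102083609-102083657, had 30 steps on 3.0 and a fold of 1.96. Exon 9 held a pair: chr14:102083189-102083243 with 34 steps and a fold of 2.85, and chr14:102083017-102083131 with 38 steps and 3.22. Exon 10, at chr14:102082161-102082226, had 30 steps and 2.73. The background thus fell from 5.0 in exon 6 to 1.87 in exon 10, while pileup stayed between 30 and 42 steps.

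HSP90AB1, the constitutive cytosolic HSP90 (chr6:44246166-44253888, plus strand), held 5 peaks of 25 to 40 steps, 4 of them coding. The first, chr6:44250302-44250603 in exon 6, had 40 steps on a background of 5.0, for a fold of 1.68, the lowest of the gene, and held 20 GAA over residues 220 to 319. Exon 7, at chr6:44251089-44251235, had 25 steps and a fold of 2.23. Exon 10 held a pair, as HSP90AA1 exon 9 did: chr6:44252072-44252122 with 30 steps and 2.73, and chr6:44252171-44252262 with 32 steps and 2.93, the highest fold of the gene. The fifth peak, chr6:44253586-44253710, lay over the stop codon and 3'UTR, with 31 steps and 2.01.

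All 4 coding peaks of HSP90AB1 covered residues that were also under a peak in HSP90AA1. The proteins are 86.7% identical over 724 aligned residues, and their aligned codons 75.7% at the bases. Of the aligned residues, 27.1% were under a peak in HSP90AA1 and 26.1% in HSP90AB1, and 136 were under a peak in both, which is 69.4% of the HSP90AA1 residues under peaks and 72.0% of those of HSP90AB1. The 3 HSP90AA1 peaks outside this overlap were those of exons 7, 8 and 10.

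In all 4 pairs the pileup was higher in HSP90AA1 than in HSP90AB1. Over the charged linker, HSP90AA1 had 44 steps on 2.26 and HSP90AB1 40 on 5.0. At residues 353 to 383 of HSP90AA1, its 42 steps on 5.0 stood against 25 on 2.0. The pairs at residues 516 to 534 and 553 to 585 had 34 and 38 steps in HSP90AA1 and 30 and 32 in HSP90AB1, on backgrounds of 1.82 to 2.06 in all 4 peaks. The longest run of identical bases within the residues shared was 11, 21, 11 and 22 nt in the 4 pairs. The bases of whole reads shared between these genes cannot be judged from a peak list.

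The paralog HSP90B1 is further away, 49.8% identical to HSP90AA1 over 715 aligned residues, and 60.7% of its aligned residues were under a peak. Its exon 7 peak lay wholly within the aligned linker peaks of both cytosolic genes, sharing 36 residues with each.

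In the HSP70 family, HSPA5 held peaks and HSPA8 held none. HSPA5, the ER HSP70 also known as BiP (chr9:125234853-125241382, minus strand), had 2 coding peaks of equal pileup. The peak at chr9:125239102-125239183, in exon 5, had 21 steps on a background of 1.25 and a fold of 2.57, and that at chr9:125236862-125236937, in exon 8, had 21 steps on 1.0 and a fold of 2.89. They covered 52 of 654 residues, and no peak lay in the 1739 nt of 3'UTR, which holds 10 UGUA. Since they are the only HSPA5 peaks, both are printed whole, with GAA in capitals.

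HSPA5 exon 5, chr9:125239102-125239183, minus strand: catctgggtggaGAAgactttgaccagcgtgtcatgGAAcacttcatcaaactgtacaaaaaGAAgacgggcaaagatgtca
HSPA5 exon 8, chr9:125236862-125236937, minus strand: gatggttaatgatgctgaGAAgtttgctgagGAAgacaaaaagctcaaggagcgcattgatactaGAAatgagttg

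HSPA8, the constitutive cytosolic HSP70 (chr11:123057489-123063230, minus strand), had 0 peaks over 4849 nt of exon sequence, and the nearest peak was 266 kb away. Its protein is 65.9% identical to that of HSPA5 over 627 residues. The gene hosts the small nucleolar RNAs SNORD14C, SNORD14D and SNORD14E in its introns.

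The lectin chaperones held few peaks. CALR (chr19:12938578-12944489, plus strand) had 1, at chr19:12944320-12944467 in the 3'UTR, with 28 steps on a background of 2.0 and a fold of 2.46. Its midpoint was 96 nt from the canonical end, and it held the only UGUA of the 3'UTR. An annotated antisense lncRNA has an exon at the same place, so the strand of these reads is not known.

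CANX (chr5:179678628-179731641, plus strand) had 3 peaks, none of them with its midpoint in a canonical exon, and all on the common background of 0.048, which 60.1% of all peaks of the list shared. The highest, at chr5:179723014-179723258, had 7 steps, a fold of 2.48 and 2 UGUA, in a 3'UTR that belongs to an alternative transcript. The others, with 4 steps and 1 step, were in an intron and a noncoding exon. None of the 25 UGUA in the 2997 nt of the canonical 3'UTR was under a peak.

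The protein disulfide isomerases had 5 peaks each, of 1 to 18 steps where those of the HSP90 genes had 18 to 44. In PDIA3 (chr15:43746394-43773279, plus strand) the highest fold, 4.03, was that of exon 7 at chr15:43765946-43766020, with 15 steps on a background of 0.096. Exon 1, at chr15:43746602-43746743, had 18 steps on 1.0 and a fold of 2.55, within an exon of CATSPER2P1 on the other strand. The peak of exon 10, at chr15:43769589-43769663, had 13 steps and a fold of 3.74, and covered the codons of a Cys-Gly-His-Cys active site, the pair of cysteines that carries out the exchange.

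It was the only 1 of the 7 Cys-Gly-His-Cys sites of PDIA3, PDIA4 and PDIA6 (2, 3 and 2) that lay wholly under a peak. The PDIA3 peak at chr15:43771184-43771265 spanned the stop codon, with the codons of the last 4 residues under it, and had 14 steps and 3.82, while chr15:43771790-43771915, within the 3'UTR, had 2 steps and 1.39. Of the 11 UGUA in the PDIA3 3'UTR, 1 was under a peak.

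PDIA4 (chr7:149003062-149028662, minus strand) had 4 coding peaks and 1 at its 3' end. Exon 4, at chr7:149014889-149014944, had the highest fold of the gene, 3.70, with 15 steps on a background of 0.192, and exon 3, at chr7:149018975-149019056, had 16 steps and 3.36. In exon 10, chr7:149003937-149003995 had 11 steps and 2.16. The fourth, in exon 7, had 9 steps. The peak at chr7:149003079-149003126 lay 40 nt from the canonical end, held AAUAAA and no UGUA, and had 7 steps and a fold of 2.21. The PDIA4 3'UTR holds 0 UGUA.

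PDIA6 (chr2:10783391-10837977, minus strand) had 2 coding peaks, 2 in introns and 1 in the 3'UTR. The highest fold was 2.94, at chr2:10802566-10802613 in exon 2, with 11 steps. The 3'UTR peak, chr2:10783998-10784079, had the most steps, 16, on a background of 1.0, for a fold of 2.32, and held 1 of the 5 UGUA of the 3'UTR. That stretch is also exonic in ATP6V1C2, on the other strand. The other coding peak had 7 steps and the intron peaks 9 and 1.

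**Figure D2:**
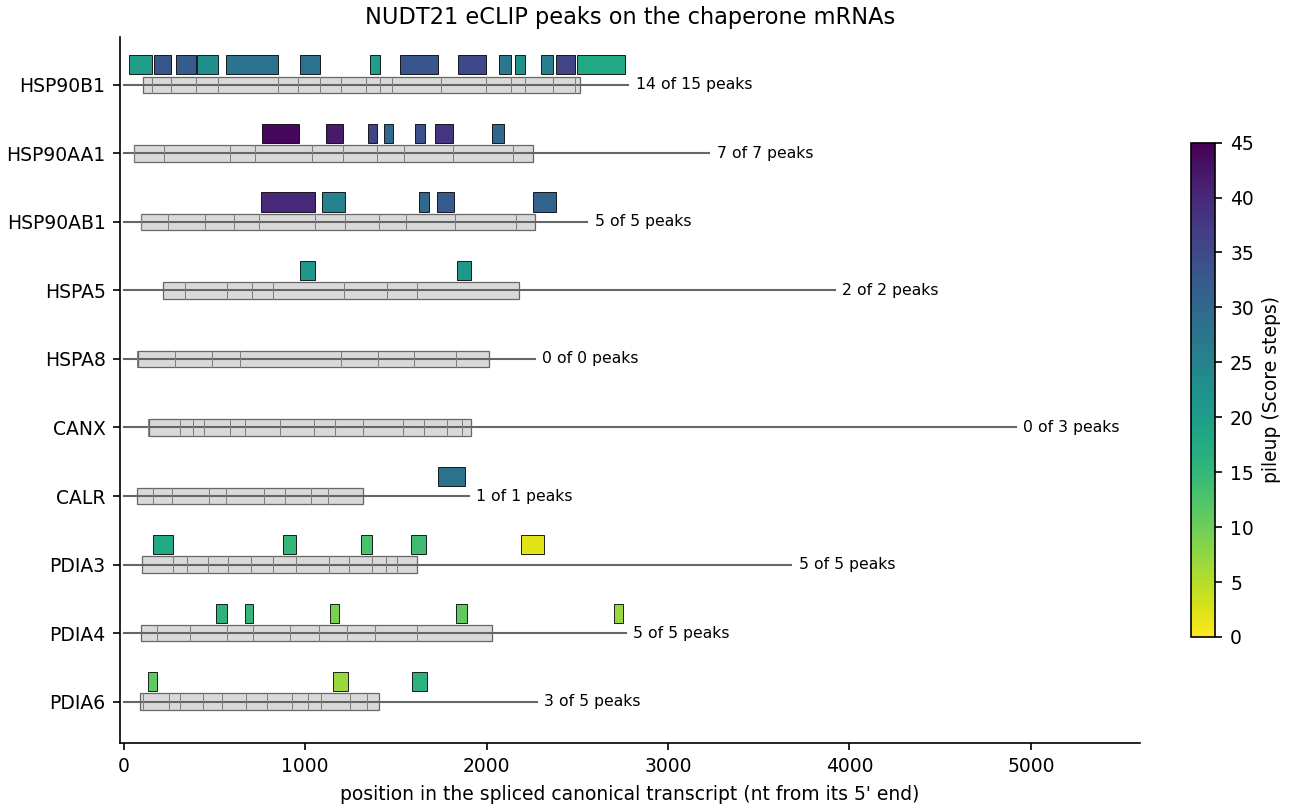
Peaks on the spliced canonical mRNA of each gene, in nt from its 5' end (horizontal axis); grey boxes are coding sequence with exon borders, lines are UTRs, and coloured boxes are the exonic parts of peaks, coloured by pileup in Score steps. Only peaks with their midpoint in a canonical exon are drawn (14 of 15 in HSP90B1, 0 of 3 in CANX, 3 of 5 in PDIA6); peaks in HSP90B1 run from exon 1 to exon 18 with gaps and cover 62.1% of its residues, and those in HSP90AA1 and HSP90AB1 begin at the charged linker and cover 27.2% and 26.1%.

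The place of these peaks on the gene depended on how overlapping transcripts were ranked. With CDS of any transcript counted first, 36 of 48 (75.0%, 60.4 to 86.4%) were coding, beside 33.5% of all peaks in protein-coding genes, and 8 (16.7%, 7.48 to 30.2%) were in a 3'UTR and no CDS, beside 20.5%. With 3'UTR first, 27 (56.2%, 41.2 to 70.5%) counted as 3'UTR, beside 30% of all, and 16 as CDS. The difference came from coding exons of HSP90B1, HSP90AA1 and PDIA3 that lie in the 3'UTR of other annotated transcripts. Introns held 3 of 48, beside 39.6%. An annotated transcript end lay within 150 nt of the midpoint of 10 peaks (20.8%, 10.5 to 35.0%), beside 14.3% of all, but the end of the canonical transcript lay that near to 2 only, those of CALR and PDIA4.

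Coding peaks of these genes repeatedly ran past the 3' edge of their exon into the intron, and not past the 5' edge. Of 31 peaks in internal exons, all coding and of 5 or more steps, 20 (64.5%, 45.4 to 80.8%) crossed the 3' edge and 0 (up to 11.2%) crossed the 5' edge. Over all peaks of the list in such exons, 38.3% crossed the 3' edge and 2.2% the 5' edge, so the asymmetry is general. Including first exons, 22 chaperone peaks crossed, by 4 to 41 nt with a median of 27.5 nt.

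In HSP90B1, 12 of 13 such peaks crossed, by 24 to 41 nt, while the peak of exon 12 ended within the exon. In HSP90AA1, 3 of 7 crossed by 17 to 25 nt, in HSP90AB1 2 of 4 by 4 and 22 nt, in PDIA3 3 of 3 by 8 to 37 nt and in PDIA4 2 of 3 by 15 and 17 nt. None crossed in PDIA6 (2 peaks) or HSPA5 (1 peak). Peaks crossed in genes of both strands: 17 of 20 on the plus strand and 5 of 13 on the minus strand. How far reads were extended by the peak caller is not stated, and its part in these edges was not tested.

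The RNA under these peaks was rich in GAA, a codon of glutamate. Exonic chaperone peaks held 227 GAA in 5462 nt, or 41.6 per kb, while the exons of the same genes outside peaks held 20.1 per kb, a ratio of 2.06 (1.78 to 2.38). In canonical coding sequence alone, of the 7 genes with coding peaks, the ratio was 1.69 (1.40 to 2.04), from 52.0 and 30.7 per kb. The opposite-strand motif UUC was at 14.1 per kb under peaks and 17.5 outside, a ratio of 0.807 (0.632 to 1.02). Purines made up 57.0% of the bases under exonic chaperone peaks and 50.8% outside. Exonic peaks elsewhere in the list held 22.7 GAA per kb. Peaks in CDS of any transcript held 47.5 per kb in the chaperone genes and 26.7 per kb elsewhere. Those elsewhere of 10 or more steps held 32.3 per kb.

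GAA was concentrated in a few peaks. Of the 45 exonic chaperone peaks, 8 (17.8%) held 60 or more per kb, where 7.57% of all exonic peaks did, and these 8 held 111 of the 227 GAA. They were the peaks of exons 7, 13 and 17 of HSP90B1, with 94.0, 76.9 and 102 per kb, and the 3'UTR peak of PDIA6, with 61.0. In HSP90AA1 they were the linker peak, with 118, and the second exon 9 peak, with 95.7. In HSP90AB1 they were the linker peak, with 66.2, and the second exon 10 peak, with 87.0. The first peaks of HSP90AA1 exon 9 and HSP90AB1 exon 10 held 18.2 and 19.6 per kb.

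By gene, the coding sequence of HSP90AA1 held 72.2 GAA per kb under peaks and 36.5 outside, and that of HSP90AB1 59.0 and 23.2. HSP90B1 had 53.4 and 42.6, and PDIA3 42.0 and 29.5. HSPA5 (38.0 and 38.8), PDIA4 (23.3 and 23.8) and PDIA6 (24.8 and 22.4) had near equal densities. CANX, which has no coding peak, had a lower density under peaks, 15.6 and 41.9, from 2 GAA in 128 nt. The excess was thus largest in HSP90AA1 and HSP90AB1. It was smaller in HSP90B1 and in PDIA3, where it rests on 11 GAA in 262 nt, and no interval was computed for single genes.

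Charged residues were also more frequent under coding peaks, a measure that is not independent of GAA, since GAA in frame encodes glutamate. Glutamate, aspartate and lysine made up 410 of 1114 residues (36.8%, 34.0 to 39.7%), against 25.6% of the other 3389 residues of the same 7 proteins. For single genes, the share was taken over all peaks that reach codons, including 3'UTR and intron peaks. It was 48.7% under peaks and 24.3% elsewhere in HSP90AB1, 46.7% and 25.9% in HSP90AA1, and 33.1% and 27.6% in HSP90B1. In HSPA5, where GAA was no denser under peaks, the share was 42.3% of 52 residues and 24.9% elsewhere. It was 31.0% and 23.5% in PDIA3, 24.0% and 21.3% in PDIA6, and 26.1% and 28.5% in PDIA4. CANX, which has no coding peak, had 22.0% of 41 residues under peaks and 33.2% elsewhere, so it and PDIA4 went the other way. The PDIA6 coding peaks had only 20% of 15 residues and 15.4% of 26, while a PDIA6 intron peak had 55.6% of 9. The PDIA3 value includes the peak over the stop codon, with 70% of 10 residues.

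**Figure D3:**
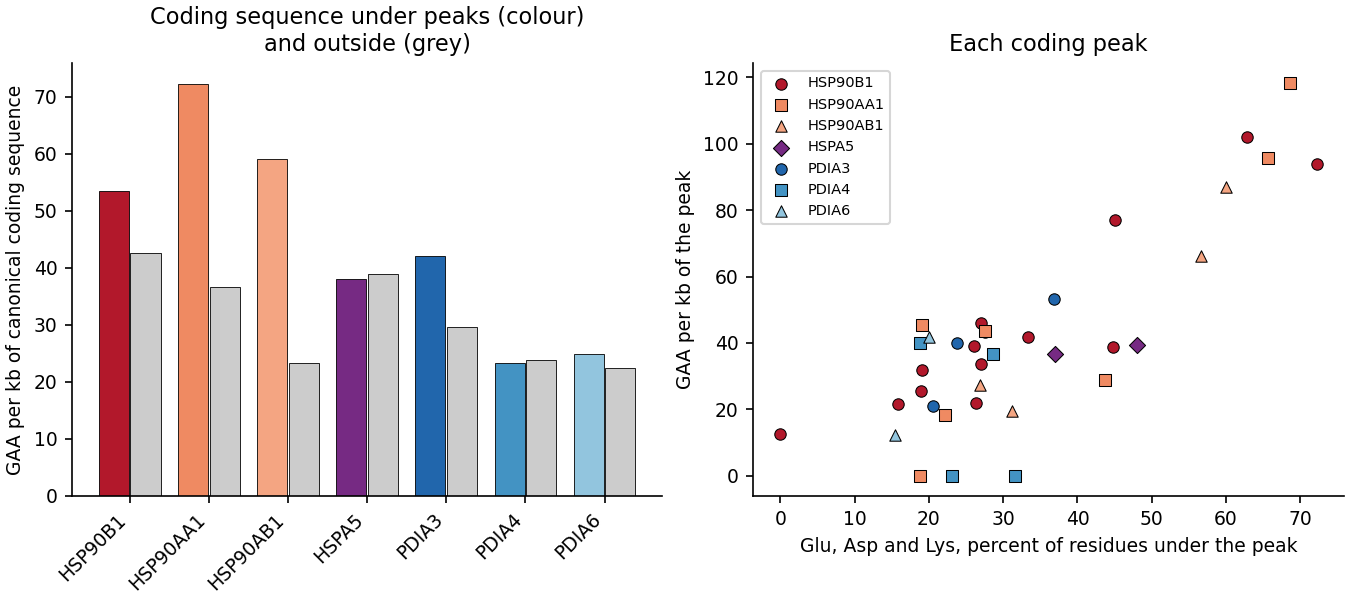
Left, GAA per kb of canonical coding sequence under peaks (coloured bars) and outside peaks (grey bars) in the 7 genes with coding peaks. Right, each coding peak by the share of glutamate, aspartate and lysine among its residues (horizontal axis, percent) and its GAA per kb (vertical axis); the linker and acidic-stretch peaks of the HSP90 genes form the upper right, with 45.1 to 72.2% of these residues.

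The density of UGUA, the sequence NUDT21 binds, could not be told apart under these peaks and beside them. On the gene strand it was in 18 of 45 exonic peaks (40.0%, 25.7 to 55.7%), beside 32.7% of all exonic peaks. The 27 copies amount to 4.94 per kb, against 4.38 per kb of the same exons outside peaks, a ratio of 1.13 (0.729 to 1.68) that includes 1. The reverse complement UACA was at 2.93 against 3.92 per kb, a ratio of 0.747 (0.420 to 1.24). Of 5 UGUA in the canonical HSP90B1 3'UTR, 5 were under its last peak, whereas HSP90AA1, HSPA5, CANX and HSPA8, with 11, 10, 25 and 4 in their canonical 3'UTRs, had none of these under a peak. The 2 copies under the CANX peak described above lie in the 3'UTR of an alternative transcript.

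Of 33 annotated pseudogenes of these families, 17 of them of HSPA8, 1 held a peak, PDIA3P1, with 2 steps and a fold of 1.39, beside 0.676% of all annotated pseudogenes. How alike the pseudogenes and their parent genes are was not measured, nor how the mapping treated reads that match both.

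Among 107 other chaperone and ER folding genes found in the annotation, 55 (51.4%, 41.5 to 61.2%) held a peak, beside 33.4% of all protein-coding genes, and 20 (18.7%, 11.8 to 27.4%) held one of 10 or more steps, beside 4.62%. Of the 10 genes above, 9 and 8 did so, but those were chosen with their peaks known. By list, a peak was found in 22 of 39 HSP90, HSP70 and co-chaperone genes, 20 of 36 ER folding factors, 6 of 15 regulators of ER stress and heat shock, and 7 of 17 chaperonins and small heat shock proteins. None of these genes had a peak with an FDR under 0.05.

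The highest folds among them were 4.59 in PRKCSH, the glucosidase subunit that readies glycoproteins for CANX and CALR (18 steps), and 4.35 in the co-chaperone DNAJC7 (16 steps). LMAN1, a cargo receptor for glycoproteins, had 3.31 with 13 steps at its highest and TMX1, a membrane relative of the PDI proteins, 3.13 with 12. EDEM3, which trims mannose from misfolded glycoproteins, and SIL1, the exchange factor of HSPA5, tied at 3.13 with 10. The most peaks were in EDEM3 (16), UGGT1, which returns glucose to unfolded glycoproteins (10), the oxidase ERO1A and the lectin OS9 (8 each), and PRKCSH (7). Pileup in these genes reached at most 18 steps, the lowest value of any HSP90B1 peak.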

How the data were processed

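Per the study's methods, the authors trimmed the reads with fastp, collapsed duplicates through their molecular identifiers, discarded rRNA reads, mapped to hg38 and called peaks with MACS2. The aligner, the read extension and the use of the input as control are not given in the sources used here. The deposited list gives a position, a Score, a fold, a p-value and an FDR for each peak and leaves out the strand. The deposited fold enrichment is a ratio. The deposited Score is a pileup signal of unstated unit, in whole steps. The deposited p-value equals the Poisson tail above the whole part of the Score, given the implied background, for 100% of peaks, to within 1% of p. The methods state a q-value limit of 0.05, but the deposited FDR is under 0.05 for 19 of the 20499 peaks, while every p-value is, so the listed peaks do not meet that limit by this column.

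Regions came from GENCODE 44, by the midpoint of the peak over all transcripts; a 3'UTR went before a 5'UTR, then CDS, other exons and introns. Canonical means the Ensembl canonical transcript. Motifs were counted with overlaps in hg38 on the gene strand, and residues were translated from its coding sequence. Proteins were aligned globally with BLOSUM62 (gap opening -11, extension -1). Shares have exact Clopper-Pearson intervals, medians exact order-statistic intervals, and density ratios exact conditional intervals. All of these take peaks, residues or motifs as independent, although many lie side by side in the same gene. Tools were scipy 1.17.1, Biopython 1.88, numpy 2.4.6, matplotlib 3.10.9 and pandas 2.3.3 under Python 3.11.15, with steps tested on simulated data.

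Named are each gene's peak of highest fold, peaks with an FDR under 0.05, of 10 or more steps, or in a 3'UTR and no CDS. Of the 108 other chaperone genes listed, 107 were found, and the 5 with most peaks and the 5 of highest fold are named, with a tie. The members and lists were chosen with earlier results of these data known. The limits of 60 GAA per kb and of an implied background of 1, the exon edges and the protein alignment were added with the data in view.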

Additional observations from a re-analysis of the deposited data

How the results depend on the processing

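Of 43 alternative values of 12 results, 27 stayed within 1.5 times the count or within the interval of the value reported. With an FDR under 0.05, 1 of the 48 chaperone peaks and 0 of the 55 other chaperone genes with a peak were left. With a fold of at least 2, all 39 remaining chaperone peaks (100%) reached 5 steps. That is built into the limit: even on the lowest implied background of the list, 0.0144, a fold of 2 requires 5 steps. The share of chaperone peaks in 3'UTRs, 56.2% as reported, was 16.7% with CDS in precedence and 14.6% with 1 transcript per gene, and the share in CDS, 33.3% as reported, was 75.0% and 72.9%, so the larger class changed from 3'UTR to CDS; here 1 transcript per gene also brought the share within 150 nt of an end from 20.8% to 4.17%. Extending peaks by 50 nt on each side raised the share of exonic peaks with UGUA from 40.0% to 68.9%, as longer windows hold more sequence. The purine share under exonic peaks, 57.0%, was 58.4% in canonical exons. Without HSP90B1 the share of glutamate, aspartate and lysine was 40.1%. Alternatives added after the data had been seen were canonical coding sequence alone, with a GAA ratio of 1.69 and a purine share of 61.1%, and the omission of the peaks of 60 or more GAA per kb, with a GAA ratio of 1.38, a purine share of 52.9% and 25.9% of these residues, beside 25.6% outside coding peaks. As that omission selects on GAA, a codon of glutamate, lower values are built into it. No paired analysis was possible because 1 library gave peaks. With 1 library of unknown depth, the absence of a peak in HSPA8 or in a 3'UTR cannot be told apart from too few reads.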
